A study of Mus musculus with 7 samples.

Results

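The B7 ligands and maturation genes of dendritic cells were compared between Atg16l1 hypomorph and wild-type CD11c-positive spleen cells. They are 10 genes (Cd80, Cd86, Icosl, Cd274, Pdcd1lg2, Cd200, Cd83, Ccr7, Fscn1 and Marcksl1), chosen by name and for their known roles. Every probe set that names 1 of these genes alone was used, which gave 21 of the 22625 tested probe sets and 10 of the 12393 genes that the array names singly. No filter on low values was applied, so all 10 genes and all 21 probe sets are accounted for.

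The cells came from mouse spleens taken 7 days after an allogeneic hematopoietic stem cell transplant (allo-HSCT), in which the donor differs genetically from the recipient, and were enriched for CD11c by magnetic (MACS) sorting. The groups were 3 Atg16L1 hypomorphic arrays and 4 wild-type (WT) arrays, each given as C57BL/6J in genotype and background. Age is stated as 9 weeks in the sample protocol and as 8 weeks in the series design. A hypomorph keeps part of a gene's function, and Atg16l1 encodes a protein that attaches LC3 to forming autophagosomes. The hypomorph allele, the donor strain, and whether recipient or donor carried the labelled genotype are not stated in the labels. Nothing in the labels says that arrays came from separate animals, and the p-values cover only the spread among these samples, which may be technical.

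Dendritic cells activate T cells through peptides on MHC molecules together with ligands of the B7 family. CD80 and CD86 stimulate through CD28 and restrain through CTLA-4, ICOS ligand stimulates through ICOS, and PD-L1 (Cd274) and PD-L2 (Pdcd1lg2) inhibit through PD-1. On maturation a dendritic cell raises these ligands and CD83, gains the chemokine receptor CCR7 that guides it to T cell zones, and builds fascin (Fscn1) into actin bundles of its dendrites.

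Array medians ran from 5.46 to 5.53 on the deposited log2 scale, and each array correlated with the others at a mean of 0.990 to 0.993. Atg16l1 read 6.86, 6.76 and 6.94 on the hypomorph arrays, against 7.42, 7.33, 7.26 and 7.20 on the wild-type arrays, with no overlap. Its log2 change was -0.45 (limma adjusted p = 0.462). Itgax, which encodes CD11c, read 7.98 to 8.48 in the hypomorph and 7.98 to 8.33 in wild type, and H2-Ab1, a class II chain, read 9.998 to 10.64 and 9.89 to 10.27. Markers of other cells were present on every array. For each marker list the linear values of its measured genes were summed per array. The neutrophil list summed to 39666 to 68237 in the hypomorph and 61775 to 68914 in wild type, the cytotoxic lymphocyte list to 14291 to 16524 and 13039 to 18869, and the T cell list to 3434 to 4410 and 2836 to 5241. The red pulp macrophage list summed to 36352 to 43181 in the hypomorph and 24201 to 43139 in wild type, and the B cell list to 269 to 515 and 426 to 524. The arrays with the most pancreatic acinar transcripts were wild-type arrays 4 and 3, with list sums of 5108 and 3130, against 711 to 1508 on the hypomorph arrays and 756 and 1251 on the other wild-type arrays. The basophil and mast cell list summed to 502 to 591 in the hypomorph and 863 to 1692 in wild type, and the erythroid list to 1704 to 8873 and 5230 to 8888. In such bulk samples, fewer cells of a type and less RNA per cell cannot be told apart.

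No probe set of the 10 genes passed an adjusted p of 0.05 when limma was fitted to the whole array, where 0% of the tested probe sets were called. At an unadjusted p under 0.05, 2 of the 21 probe sets were higher in the hypomorph, 1 of Cd80 and that of Cd200, and 0 were lower. Without hypomorph array 3 that count was 1 higher and 4 lower, the 4 being those of Marcksl1. Over all tested probe sets 4.35% were higher and 3.34% lower by that rule. Hypomorph arrays lay wholly above wild-type arrays for 1 of the 21 probe sets (background 3.07%) and wholly below for 0 (background 2.50%). With counts this small against such backgrounds, nothing particular to these genes can be read from them. By the probe set of highest mean, here called the main probe set, 8 of the 10 genes had a positive log2 change with a median of 0.19, beside 49.2% positive and a median of -0.0024 over all genes. The members were chosen with earlier results known, so these counts are a description.

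**Figure D1:**
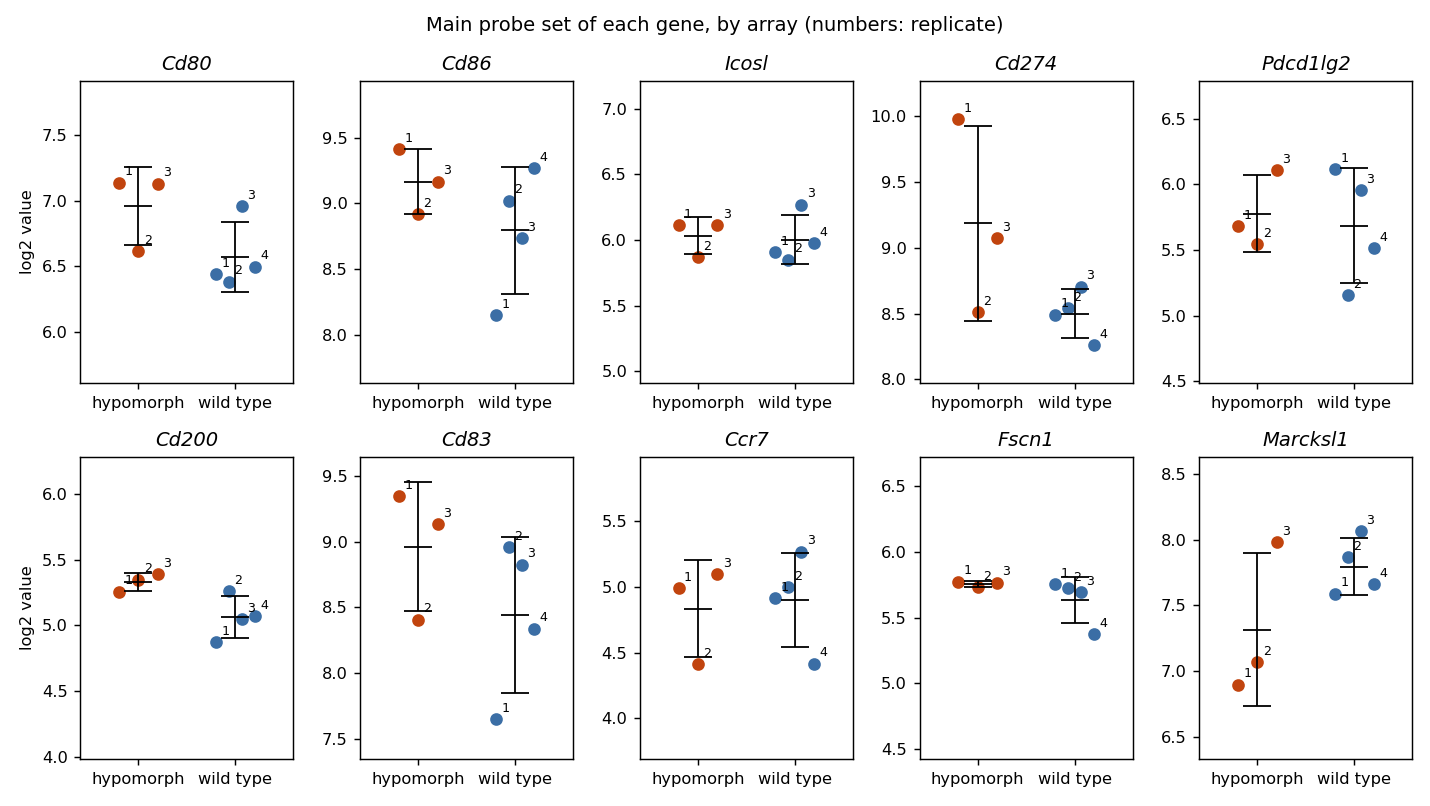
Deposited log2 values of the main probe set of each of the 10 genes, with 1 point per array numbered by replicate, hypomorph left and wild type right, and bars for mean and SD (n = 3 and 4). Each panel spans the same range of log2 units. Hypomorph array 1 stands above all others for Cd274 at 9.98, wild-type array 1 below all others for Cd86 and Cd83 at 8.15 and 7.65, and hypomorph arrays 1 and 2 below all wild-type arrays for Marcksl1.

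Of the stimulating ligands, Cd80 had the clearest positive values. Its main probe set, 1432826_a_at, read 7.14, 6.62 and 7.13 on the hypomorph arrays, against 6.44, 6.38, 6.96 and 6.50 on the wild-type arrays. Hypomorph arrays 1 and 3 were above every wild-type array and hypomorph array 2 lay inside their range, below wild-type array 3. The mean was 6.96 ± 0.298 in the hypomorph (SD, n = 3) and 6.57 ± 0.263 in wild type (SD, n = 4). That is a log2 change of 0.39, with a 95% confidence interval from -0.03 to 0.81 (limma adjusted p = 0.644).

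A further Cd80 probe set, 1451950_a_at, read 6.07, 6.16 and 6.35 on the hypomorph arrays and 5.70, 5.53, 5.97 and 5.86 on the wild-type arrays. Here all 3 hypomorph arrays were above all 4 wild-type arrays, which happened for no other probe set of these genes. The log2 change was 0.43, with an interval from 0.15 to 0.71, and it did not pass after adjustment over all probe sets (limma unadjusted p = 0.0081, adjusted p = 0.644). The last 2 Cd80 probe sets, 1427717_at and 1454372_at, read between 3.19 and 3.41 and between 2.42 and 2.69 in the hypomorph, and between 3.17 and 3.19 and between 2.59 and 2.78 in wild type. All arrays have lower quartiles of 3.31 to 3.39, so those probe sets lay at the dim end of the array. Their changes of 0.08 and -0.09 say little about the gene.

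Cd86 read 9.41, 8.92 and 9.16 on the hypomorph arrays by its main probe set, 1449858_at, against 8.15, 9.02, 8.74 and 9.27 on the wild-type arrays. The groups overlapped, since wild-type array 4 exceeded hypomorph arrays 2 and 3, and wild-type array 1 was the lowest of all. The means were 9.17 ± 0.248 in the hypomorph and 8.79 ± 0.482 in wild type, a log2 change of 0.37 (95% confidence interval -0.23 to 0.97, limma adjusted p = 0.709). Without wild-type array 1 the change was 0.16. That array also had the lowest wild-type sums for CD8 lineage and CD11b lineage dendritic cell markers, 1711 and 1556 against 2123 to 2740 and 1850 to 2891 on the other wild-type arrays, and the lowest for red pulp macrophage markers, 24201. It was also lowest among wild-type arrays for the pan dendritic cell, plasmacytoid, B cell, monocyte and neutrophil lists. The same held for the platelet, endothelium and acinar lists, so the low sums were not particular to cells that carry Cd86. Its T cell and cytotoxic lymphocyte sums were the highest. The part of these cells in the Cd86 values was not tested.

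The other Cd86 probe set, 1420404_at, read 8.66, 8.60 and 8.75 on the hypomorph arrays and 7.92, 8.90, 8.43 and 8.99 on the wild-type arrays. It placed the hypomorph inside the wild-type range, with a log2 change of 0.11 (-0.46 to 0.67). Icosl, the ligand of ICOS, read 6.11, 5.87 and 6.12 on the hypomorph arrays, against 5.91, 5.85, 6.27 and 5.98 on the wild-type arrays, by 1419212_at. All hypomorph values fell within the wild-type range, and the change was 0.03 (-0.24 to 0.31, limma adjusted p = 0.955). Its second probe set, 1426087_at, was dim at 3.10 to 3.27 in the hypomorph and 3.22 to 3.28 in wild type.

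Of the inhibiting ligands, Cd274 had the largest log2 change among the main probe sets of the 10 genes. It read 9.98, 8.51 and 9.07 on the hypomorph arrays, against 8.49, 8.54, 8.70 and 8.26 on the wild-type arrays. Hypomorph arrays 1 and 3 were above every wild-type array, while hypomorph array 2 lay among them. The means were 9.19 ± 0.743 in the hypomorph and 8.50 ± 0.184 in wild type, a log2 change of 0.69 or a 1.61-fold higher level (95% confidence interval -0.03 to 1.41, limma adjusted p = 0.644). The value depended on which hypomorph array was counted, being 0.29 without hypomorph array 1 and 1.03 without hypomorph array 2. Pan dendritic cell markers had the same order over the hypomorph arrays, with sums of 12681, 9066 and 9171, against 8871 to 10481 in wild type. So did the CD8 lineage list (2359, 2025 and 2215, against 1711 to 2740), the plasmacytoid list (587, 529 and 547, against 512 to 677) and red pulp macrophage markers. The last had sums of 43181, 36352 and 40353 and spread from 24201 to 43139 over wild-type arrays whose Cd274 values lay close together. A positive change was seen in 12 of 12 macrophage markers, with a median of 0.24, and in 5 of 10 pan dendritic cell, 6 of 9 CD8 lineage and 2 of 8 plasmacytoid markers, with medians of -0.02, 0.05 and -0.18. Of the 16 marker lists, only those with this order are named, and others lacked it, such as the CD11b lineage list (2441, 2274 and 2679). With 3 arrays, some lists share an order by chance. The part of these cells in the Cd274 values was not tested.

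Pdcd1lg2, which encodes the second PD-1 ligand, had a change near 0. It read 5.68, 5.55 and 6.11 on the hypomorph arrays, against 6.12, 5.16, 5.96 and 5.52 on the wild-type arrays. All hypomorph values lay within the wild-type range, and the log2 change was 0.09 (-0.48 to 0.66, limma adjusted p = 0.934). Its sign turned to -0.09 without wild-type array 2, the lowest array. Whether its change differed from that of Cd274 was not tested. Ordered along the GRCm38.p6 assembly, the 2 genes lie side by side on chromosome 19, with 0 protein-coding genes between them, and Cd80, Cd86 and Cd200 share chromosome 16.

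The windows from 250 bases before to 50 after the gene start are shown for the neighbours Cd274 and Pdcd1lg2, with log2 changes of 0.69 and 0.09, and for Cd80, the stimulating ligand with the clearest values. They come from RefSeq on GRCm38.p6, at chr19:29367188-29367487, chr19:29410669-29410968 and chr16:38458683-38458982, all on the plus strand, and 7 of the 10 genes had an entry. Capitals mark matches to the motifs searched on both strands, which were the kappaB consensus, an interferon response motif (GAAA and GAAA with 2 bases between), the STAT motif GAS (TTCNNNGAA) and the AP-1 motif (TGANTCA).
Cd274: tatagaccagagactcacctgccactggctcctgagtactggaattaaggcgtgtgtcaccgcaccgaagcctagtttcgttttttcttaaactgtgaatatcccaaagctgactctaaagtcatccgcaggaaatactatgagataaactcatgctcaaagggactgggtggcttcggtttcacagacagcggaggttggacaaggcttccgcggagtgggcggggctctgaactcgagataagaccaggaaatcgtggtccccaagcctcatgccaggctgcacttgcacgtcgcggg
Pdcd1lg2: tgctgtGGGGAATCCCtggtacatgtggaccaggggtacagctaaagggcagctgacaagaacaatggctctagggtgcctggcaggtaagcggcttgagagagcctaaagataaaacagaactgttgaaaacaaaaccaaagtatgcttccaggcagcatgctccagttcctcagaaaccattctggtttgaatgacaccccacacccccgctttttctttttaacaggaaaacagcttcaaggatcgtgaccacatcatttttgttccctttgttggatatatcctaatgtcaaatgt
Cd80: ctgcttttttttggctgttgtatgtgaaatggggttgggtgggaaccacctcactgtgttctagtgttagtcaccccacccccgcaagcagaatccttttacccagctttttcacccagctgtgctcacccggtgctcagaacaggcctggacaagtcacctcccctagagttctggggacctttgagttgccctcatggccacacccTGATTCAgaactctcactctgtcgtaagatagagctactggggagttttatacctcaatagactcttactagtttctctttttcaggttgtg
The Cd274 window held no match to any of the 4. The Pdcd1lg2 window held 1 kappaB match starting at position -244 relative to the gene start, and the Cd80 window 1 AP-1 match at -42. Of the other 4 windows, that of Icosl held 1 kappaB match at -111, and those of Cd200, Fscn1 and Marcksl1 held none of the motifs. Of all 32851 promoter windows in the table, 8.46% held the kappaB consensus, 3.44% the interferon response motif, 8.30% GAS and 7.81% AP-1. A match describes letters in this window only, and nothing follows from its presence or absence about binding.

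Cd200 encodes a ligand outside the B7 core that restrains myeloid cells through the receptor CD200R. It read 5.26, 5.35 and 5.39 on the hypomorph arrays, against 4.87, 5.26, 5.04 and 5.07 on the wild-type arrays. The hypomorph arrays sat close together, and hypomorph array 1 and wild-type array 2 were nearly level, so the groups just overlapped. The means were 5.33 ± 0.0689 in the hypomorph and 5.06 ± 0.158 in wild type, a log2 change of 0.27 (95% confidence interval 0.04 to 0.49). The unadjusted p was 0.0253 in the limma fit and the adjusted p = 0.644. All Cd200 values lay below the array medians, and with 32 added to the linear values the change was 0.14. The unadjusted p was 0.0539 without wild-type array 3, 0.0619 without hypomorph array 2, 0.0764 without hypomorph array 3 and 0.109 without wild-type arrays 3 and 4 (limma). Markers of endothelium and stroma, cells that can also carry Cd200, had a positive change in 7 of 9 cases with a median of 0.22. Their sums were 565 to 725 in the hypomorph and 353 to 580 in wild type, lowest on wild-type array 1 as for Cd200, and their part was not tested. The sums of the dendritic cell lists were lowest among wild-type arrays there too. Not all lists moved with Cd200. B cell markers had a negative change in 7 of 9 cases with a median of -0.20, though their wild-type sum was also lowest on array 1, at 426. The T cell sum was highest on wild-type array 1, at 5241.

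Stimulating and inhibiting ligands were set against each other by their changes. On each array the log2 value of Cd274 or Pdcd1lg2 was taken from that of Cd80, Cd86 or Icosl, giving 6 pairs, and the difference was compared between groups by an exact two-sided permutation test over the 35 splits of the arrays. A negative value means that the inhibiting ligand gained more, or lost less, in the hypomorph than the stimulating one. Against Cd274, the values were -0.30 for Cd80, -0.32 for Cd86 and -0.66 for Icosl. Against Pdcd1lg2, they were 0.30 for Cd80, 0.28 for Cd86 and -0.06 for Icosl. The sign thus followed which inhibiting ligand was used, except for Icosl, which was negative against both. The 6 pairs share genes and are not independent, so these signs follow from the single changes already given.

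The pair with the smallest p was Icosl and Cd274 (exact permutation p = 0.0571, adjusted p = 0.343 over the 6 pairs). Relative to the wild-type mean this difference was -1.37, -0.14 and -0.46 on the hypomorph arrays, against -0.09, -0.19, 0.06 and 0.22 on the wild-type arrays. Hypomorph arrays 1 and 3 were below all wild-type arrays and hypomorph array 2 was not. For the other 5 pairs the exact permutation p ran from 0.314 to 0.800 and the adjusted p from 0.686 to 0.800. None of the 6 differences passed. The smallest exact p this design allows is 0.0286, which for a lone pair adjusted over 6 comes to 0.171, so no lone pair could have passed, whatever its size. Without hypomorph array 1, the difference was 0.01 for Cd80 and -0.04 for Cd86 against Cd274, and -0.30 for Icosl.

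**Figure D2:**
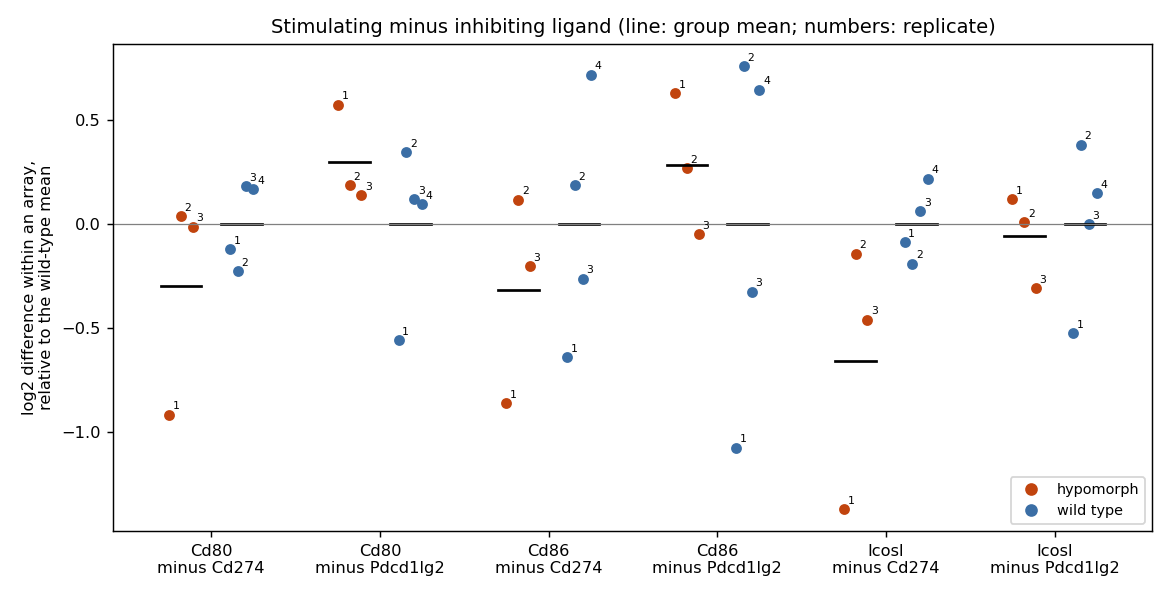
Log2 value of a stimulating ligand minus that of an inhibiting ligand on each array, relative to the wild-type mean, for the 6 pairs. Points are arrays numbered by replicate, with the hypomorph left of wild type, and lines are group means. Hypomorph array 1 is the lowest point in all 3 pairs with Cd274, at -0.92, -0.86 and -1.37, and these pairs share its 1 reading of Cd274.

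Among the maturation markers, Cd83 had a positive change and Ccr7 and Fscn1 had values near 0. Cd83 encodes a surface protein that stabilises MHC class II and CD86. It read 9.34, 8.41 and 9.13 on the hypomorph arrays, against 7.65, 8.96, 8.82 and 8.34 on the wild-type arrays. Hypomorph arrays 1 and 3 were again above every wild-type array, and hypomorph array 2 was inside their range. The means were 8.96 ± 0.492 in the hypomorph and 8.44 ± 0.594 in wild type, a log2 change of 0.52 or 1.43-fold (95% confidence interval -0.29 to 1.33, limma adjusted p = 0.704). Without wild-type array 1, the lowest, it was 0.25.

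Ccr7 read 4.99, 4.41 and 5.09 on the hypomorph arrays, against 4.92, 4.998, 5.27 and 4.42 on the wild-type arrays. The groups covered nearly the same span, and the log2 change was -0.07 (-0.60 to 0.47, limma adjusted p = 0.949). It was 0.14 without hypomorph array 2 and -0.03 with 32 added to the linear values. All Ccr7 values lay below the array medians of 5.46 to 5.53. Fscn1 read 5.77, 5.73 and 5.77 on the hypomorph arrays by its main probe set, 1448378_at, against 5.76, 5.72, 5.69 and 5.37 on the wild-type arrays. The hypomorph arrays were within 0.0421 of each other, and wild-type array 4 was the lowest of all. The change was 0.12 (-0.11 to 0.36, limma adjusted p = 0.758), or 0.03 without that array. The other 3 Fscn1 probe sets had changes of 0.06, -0.11 and 0.11, and each interval included 0.

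Marcksl1 had negative changes on all 4 of its probe sets, none of which passed the threshold. It encodes a MARCKS-like protein that binds calmodulin and membranes and acts on the actin cortex. The main probe set, 1437226_x_at, read 6.90, 7.07 and 7.98 on the hypomorph arrays, against 7.59, 7.87, 8.07 and 7.66 on the wild-type arrays. Hypomorph arrays 1 and 2 were below every wild-type array, and hypomorph array 3 was within their range. The means were 7.31 ± 0.584 in the hypomorph and 7.80 ± 0.216 in wild type, a log2 change of -0.48 or a 1.39-fold lower level (95% confidence interval -1.08 to 0.12, limma adjusted p = 0.661). The other probe sets gave -0.39, -0.29 and -0.43. Without hypomorph array 3 the main probe set was at -0.81. The x and s suffixes of these probe sets mark probes that may also bind related transcripts, so the 4 are not independent readings.

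Of the 16 marker lists, those of neutrophils, B cells, monocytes and plasma cells had the same order over the hypomorph arrays as the main Marcksl1 probe set. The remaining lists had other orders, and with 3 arrays some lists share an order by chance. Neutrophil sums were 39666, 48101 and 68237 on hypomorph arrays 1, 2 and 3, against 61775 to 68914 in wild type. B cell sums were 269, 394 and 515, against 426 to 524. Monocyte sums were 19357, 19543 and 24316, against 18292 to 22105 in wild type, and plasma cell sums 3119, 3694 and 4153, against 2426 to 3402. Of the measured markers, 8 of 8 neutrophil genes and 7 of 9 B cell genes had a negative log2 change, with medians of -0.58 and -0.20, whereas 3 of 7 monocyte genes and 7 of 7 plasma cell genes had a positive one, with medians of -0.16 and 0.33. Ms4a1, which encodes the B cell protein CD20 and was singled out after its values were seen, read 4.29, 6.56 and 6.46 on the hypomorph arrays and 6.72 to 7.03 on the wild-type arrays. It was lowest on hypomorph array 1 but did not follow the Marcksl1 order on hypomorph arrays 2 and 3. The part of these cells in the Marcksl1 values was not tested.

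**Figure D3:**
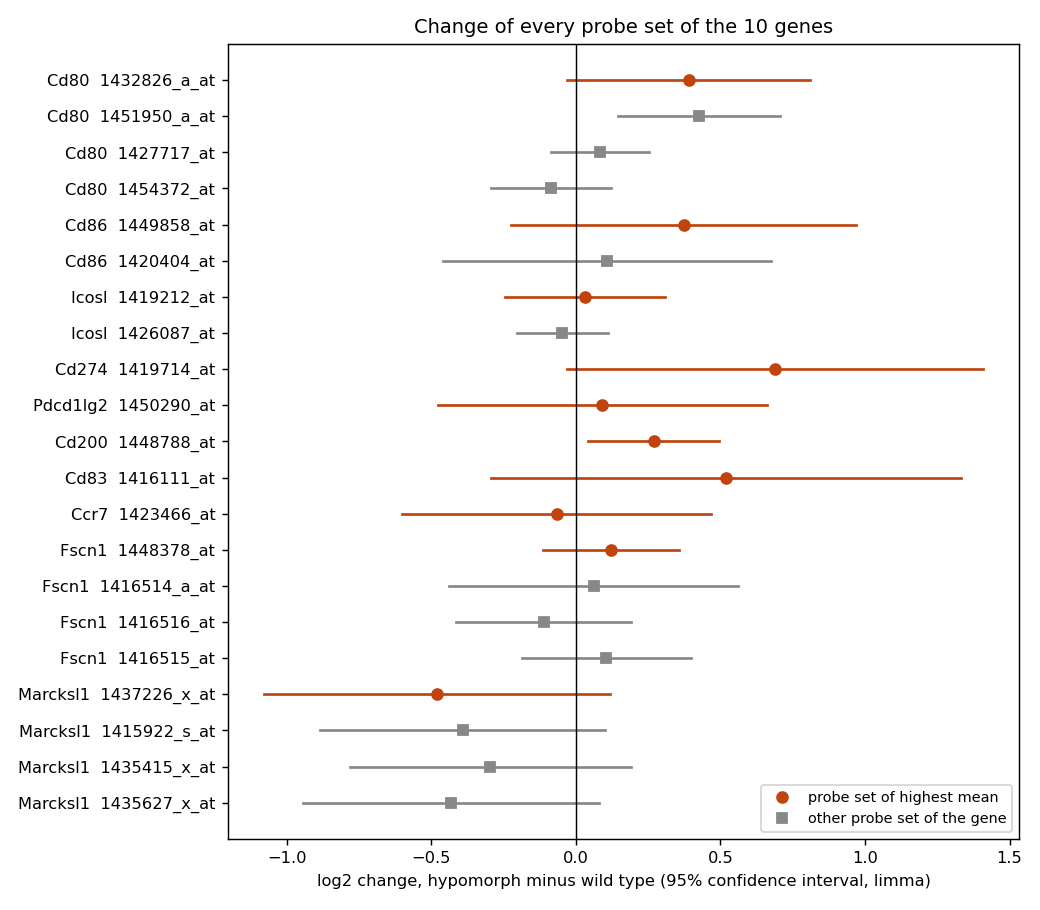
Log2 change, hypomorph minus wild type, of all 21 probe sets with 95% confidence intervals from the limma fit. Orange circles are main probe sets and grey squares the others. The intervals of 2 probe sets, Cd80 1451950_a_at and Cd200, lie wholly above 0, and the 4 of Marcksl1 have estimates below 0.

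Probe sets of the same gene were compared by the difference of their changes, for 11 pairs of a further probe set with the main one in Cd80, Cd86, Icosl, Fscn1 and Marcksl1. The clearest was Cd86, where 1420404_at gained less than 1449858_at by a log2 difference of -0.26, or -0.13 without hypomorph array 1. Relative to the wild-type mean this difference was -0.52, -0.08 and -0.19 on the hypomorph arrays, against 0.01, 0.11, -0.07 and -0.05 on the wild-type arrays. The hypomorph values lay wholly below those of wild type (exact permutation p = 0.0286, adjusted p = 0.314 over the 11 pairs), which are the smallest values that a lone pair can reach here. The adjusted p of the other 10 pairs ran from 0.550 to 0.914. The 2 brighter Cd80 probe sets differed by 0.04 in their change, and the Marcksl1 probe sets by 0.05 to 0.19.

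The 3 hypomorph arrays did not behave alike over the 10 genes. Hypomorph array 1 was above the highest wild-type array for 5 of the 10 main probe sets and hypomorph array 3 for 5, whereas hypomorph array 2 was so for 1 and was below the lowest wild-type array for 2. The share of all genes for which each array did so was not counted. Nothing particular to these 10 genes can therefore be read from these counts. The median deviation from the wild-type mean was 0.17, -0.01 and 0.35 on hypomorph arrays 1, 2 and 3. It ran from -0.12 to 0.27 on the wild-type arrays, whose deviations are from their own mean, and wild-type array 3 was highest among them. Cd80, Cd274 and Cd83 shared the order, with hypomorph arrays 1 and 3 high and hypomorph array 2 near the wild-type mean, at deviations of 0.05, 0.01 and -0.03.

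**Figure D4:**
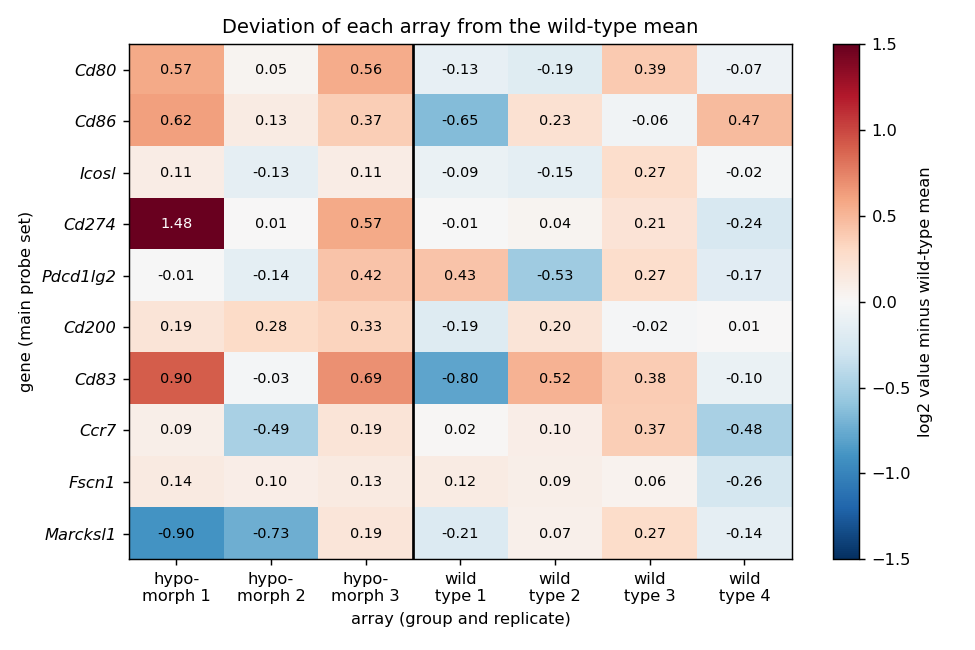
Log2 value of the main probe set minus the wild-type mean, with arrays in columns (hypomorph left of the line, wild type right) and genes in rows. The top values are those of Cd274 and Cd83 on hypomorph array 1, at 1.48 and 0.90, and the lowest is Marcksl1 on the same array, at -0.90.

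Other genes of mature and migrating dendritic cells were taken from a list of 44, of which 35 were measured and none is among the 10. Of these, 28 had a positive log2 change with a median of 0.10, beside 49.2% positive over all genes, and 0 passed the adjusted threshold in the limma fit. At an unadjusted p under 0.05, 2 of the 35 were higher and 0 lower, where 3.57% of all genes were higher and 3.59% lower by their main probe sets, and nothing particular to the list can be read from so few. Their median deviation was 0.24, -0.02 and 0.09 on hypomorph arrays 1, 2 and 3, and -0.04 to 0.05 on the wild-type arrays. Without hypomorph array 1 the median was 0.04, without hypomorph array 2 it was 0.17, and with 32 added to the linear values it was 0.060. Hypomorph arrays 1 and 3 were thus above the wild-type range and hypomorph array 2 inside it. The wild-type deviations are taken from their own mean, which draws them toward 0. Lying outside that range therefore says little by itself.

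The list was led by Socs2, a suppressor of cytokine signalling, which read 9.22, 8.47 and 8.57 on the hypomorph arrays, against 8.39, 7.86, 8.39 and 8.16 on the wild-type arrays. The groups did not overlap, and the change was 0.55 (0.07 to 1.03, limma adjusted p = 0.644). Socs3, of the same family, had a change of 0.57 (0.06 to 1.07), Tnfrsf4, which encodes OX40, 0.25, and the interleukin-15 receptor chain Il15ra 0.29. These 4 had the smallest p of the list in the limma fit. Further down the list, Cd40 had a change of 0.04 and Relb 0.06. Of the 35, 7 had a negative change, among them Nfkb2 at -0.08 and Tnfsf4, the ligand of OX40, at -0.21. The part of T cells in the Tnfrsf4 values was not tested.

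The receptors of these ligands and other B7 relatives made a list of 14, of which 11 were measured. A positive change was seen in 9 of them, with a median of 0.21, and 0 had an unadjusted p under 0.05 in the limma fit. The median was 0.073 with 32 added to the linear values, 0.13 without wild-type array 1 and 0.14 without wild-type array 2. Icos had a change of 0.33, the CD200 receptor Cd200r1 0.32, Ctla4 0.37 and Pdcd1, which encodes PD-1, 0.48. Pdcd1 read 7.73, 7.30 and 7.47 on the hypomorph arrays, against 7.80, 6.38, 7.27 and 6.62 on the wild-type arrays. The highest array was wild-type array 1, which also had the highest T cell marker sum, 5241, against 3434 to 4410 in the hypomorph and 2836 to 4015 on the other wild-type arrays. The part of T cells in the receptor values was not tested.

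A list of 10 genes of the interferon gamma pathway, which is known to induce Cd274, had 9 measured members. Of these, 6 had a positive change with a median of 0.10 (0.054 with 32 added to the linear values), beside 49.2% positive over all genes. At an unadjusted p under 0.05, 2 were higher, beside 3.57% of all genes. Ifngr2, the signalling chain of the interferon gamma receptor, read 7.78, 7.20 and 7.53 on the hypomorph arrays, against 6.56, 6.65, 6.88 and 6.82 on the wild-type arrays. The groups did not overlap, and the log2 change was 0.77 (0.44 to 1.11, limma adjusted p = 0.533). Its order over the hypomorph arrays was that of Cd274, with array 1 highest and array 2 lowest. Stat3, Irf1 and Socs1 shared this order, while Ifngr1, Jak1, Jak2, Irf8 and Cmtm6 did not. On hypomorph array 2 Ifngr2 was above every wild-type array, whereas Cd274 lay among them. With 3 arrays, some genes share an order by chance, and the part of this pathway in the Cd274 values was not tested. Stat3 had a change of 0.34, Ifngr1 0.17 and Socs1 0.10.

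The partners of Ccr7 and of the actin proteins had medians near 0. Of 11 listed ligands and migration partners of Ccr7, 8 were measured, and those not measured were the ligands Ccl19, Ccl21a and Ccl21b. Of the 8, 3 had a positive change and the median was -0.01, or -0.041 to 0.063 with single arrays left out. Cxcr4, a chemokine receptor, had a change of 0.32, Gnai2 -0.14, Ptger4 0.11 and S1pr1 0.22. Of 18 actin cortex partners of fascin and MARCKS proteins, 17 were measured, 8 had a positive change and the median was -0.03, or -0.099 without wild-type array 1, -0.074 without wild-type array 2 and -0.072 without hypomorph array 3. Cfl1 (cofilin), Flna (filamin), Ezr (ezrin) and Lcp1 (plastin) had changes of -0.14, -0.30, -0.19 and -0.17. No gene of either list had an unadjusted p under 0.05.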

How the data were processed

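Total RNA (100 ng) from 7 samples was measured on Affymetrix Mouse430A arrays. The deposited values are on a log2 scale, 1 for each probe set of an array, and the authors made them with Affymetrix Power Tools per the submitters' processing notes. How values were summarised and normalized is not given there. Array medians and quartiles were nearly equal, as they would be after normalization between arrays, but whether that was done is not stated.

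Of 22690 probe sets, 64 controls and 1 without values were left out. Genes came from the platform annotation, with symbols updated by Entrez identifier in RefSeq genes of GRCm38.p6 (20350 of 20379 probe sets naming 1 gene). Deposited values were used unchanged in limma 3.58.1 (R 4.3.3; 2 group means, no block, Benjamini-Hochberg over 22625 probe sets, threshold 0.05), tested on simulated data. Differences between ligands and between probe sets used exact two-sided permutation tests. A gene in a list entered by its probe set of highest mean, and up to 4 genes per list with the smallest p were named. The exceptions were chosen after their values were seen. The members and lists were chosen with earlier results of these data known. Alternatives covered normalization, low values, variance model, array weights, replicate block and leaving out arrays. The number of arrays limits the precision.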

Additional observations from a re-analysis of the deposited data

Results flagged for a closer look

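Among the 4 wild-type arrays, 4 of the 21 probe sets had an array whose gap to its nearest neighbour, as a share of the whole range, exceeded Dixon's 95% critical value for 4 samples. For independent groups of continuous, normally distributed values, chance gives about 1 in 20. Dim probe sets hold tied values and probe sets of a gene are not independent, so an excess over chance cannot be read from this count. Fscn1 1448378_at read 5.37 on wild-type array 4, against 5.69 to 5.76 on the others. Fscn1 1416516_at read 4.54 on wild-type array 1, against 4.20 to 4.23. The other 2 were dim, with small gaps. Cd80 1427717_at read 3.17 on wild-type array 1, against 3.19 on each of the others, and Icosl 1426087_at read 3.22 on wild-type array 2, against 3.27 to 3.28. The hypomorph group, with 3 arrays, was not examined for outlying values.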

How the results depend on the processing

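Under the alternatives no member probe set reached the adjusted threshold of 0.05 by limma. The filter at the median mean retained 11 of the 21. The alternatives run, 15 for Cd200 and 16 for the others, kept the sign of the main probe set of Cd80, Cd86, Cd274, Cd200, Cd83, Fscn1 and Marcksl1. Over these the change of Cd274 ran from 0.29 to 1.03, of Cd83 from 0.25 to 0.80 and of Marcksl1 from -0.81 to -0.27. At an unadjusted p under 0.05, 2 member probe sets were higher and 0 lower as reported (Cd80 1451950_a_at and Cd200) and without wild-type arrays 3 and 4 (both of Cd80). Cd200 also dropped out without wild-type array 3, hypomorph array 2 or hypomorph array 3. Without hypomorph array 3, 1 was higher and 4 lower, those 4 all of Marcksl1, with the replicate block 3 were higher and 4 lower, and with array weights 3 and 2. With trend and robust settings 3 were higher and 0 lower, as was so without hypomorph array 2. Cd274 was among those higher in both of these settings and with array weights. Among the 11 retained by the filter, 1 was higher and 0 lower.

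Over all probe sets, the count higher at the adjusted threshold was 5 with median centring, 5 among probe sets above the median mean, 5 with trend and robust settings and 3 with array weights, against 0 as reported. With single arrays left out it ran from 0 to 2. Unadjusted counts higher and lower were 984 and 755 as reported. Among probe sets above the median mean, where fewer were tested, they were 559 and 498. With single arrays left out they ran from 598 (without hypomorph array 1) to 1411 (without hypomorph array 2) higher, and from 431 (without wild-type array 2) to 1578 (without hypomorph array 2) lower. Without wild-type arrays 3 and 4, a setting chosen after seeing the data, 502 were lower. The sign of Icosl minus Pdcd1lg2 turned there (0.012), as did Cd80 1451950_a_at minus the main probe set with 32 added to the linear value (-0.019). Icosl was at -0.0075 as the mean of its probe sets, and Fscn1 1416514_a_at at -0.024 with array weights. The cause was not tested.

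With single arrays left out, changes that crossed 0 ran as follows. Ccr7 was at -0.23 to 0.14, Pdcd1lg2 at -0.085 to 0.23, and Icosl at -0.019 to 0.12 by its main and -0.075 to 0.0104 by its other probe set. Cd80 1454372_at was at -0.13 to 0.0027, Cd86 1420404_at at -0.10 to 0.25 and Fscn1 1416514_a_at at -0.11 to 0.21. Of the ligand pairs, Cd80 minus Cd274 was at -0.47 to 0.0104, Cd86 minus Pdcd1lg2 at -0.078 to 0.53 and Icosl minus Pdcd1lg2 at -0.24 to 0.067. Against the main probe set, Cd80 1451950_a_at was at -0.12 to 0.19, Icosl 1426087_at at -0.19 to 0.021, Fscn1 1416514_a_at at -0.27 to 0.10, Fscn1 1416515_at at -0.11 to 0.037, Marcksl1 1415922_s_at at -0.044 to 0.19 and Marcksl1 1435627_x_at at -0.064 to 0.11.

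The replicate numbers are not said to pair arrays. Deviations of same-numbered arrays correlated at 0.102, 0.0977 and 0.339, and 1 of 3 hypomorph arrays correlated best with its own number. With the replicate block, which leaves out wild-type array 4, Fscn1 1416514_a_at and 1416515_at minus the main probe set turned to 0.10 and 0.037. The smallest exact p with the block is 0.25, so no pair could pass there.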
